A study of Rattus norvegicus with 2 samples.

Results

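Noncoding RNAs were followed here in the nucleus of the solitary tract (NTS), the part of the dorsal medulla where signals from baroreceptors and other visceral afferents first reach the brain. The set comprised every probe outside the controls whose transcript accession was a RefSeq noncoding accession (prefix NR_), which gave 117 probes for 97 accessions out of 45595 probes on the array. Matching the accessions to the RefSeq gene table of assembly GRCr8 named 91 accessions as 88 genes, and 6 accessions (7 probes) stayed without a name. The RNA came from spontaneously hypertensive rats (SHR) aged 9 weeks, an inbred strain in which blood pressure climbs with age, and no normotensive strain is analysed here. One group was male and the other female. For each sex RNA of 5 rats was pooled, 100 ng from each, and 1 array was hybridised. Each value therefore stands for 1 pool, the spread between rats is unknown, and no test between the sexes was possible.

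Noncoding RNAs act without being translated. Some are parts of the machinery of every cell, such as ribosomal RNA, the RNA of the signal recognition particle and the RNA of RNase P. Long noncoding RNAs (lncRNAs) include hosts of small nucleolar RNAs, imprinted transcripts expressed from 1 parental allele and nuclear RNAs of neurons. Transcribed pseudogenes are copies of coding genes that no longer encode the full protein.

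The level of a probe is the log2 processed signal minus the 75th percentile of its array, so that a level of 0 lies at that percentile and 1 unit is a 2-fold step. Measured probes are those that stood well above background in both pools. Signal also depends on how well a probe binds, so the ranking is one of probe signals and not of RNA amounts. Each array had 58717 spots outside the controls, 80.1% (male) and 82.3% (female) of them well above background, and no spot was saturated. Eif2s3y, a Y-linked gene used to check the sex labels, was at least 65.0-fold lower in the female pool. Of the Ddx3y probes, also Y-linked, 1 was below background in the female pool and at least 20.2-fold lower there, and the other was above background in both pools, at -2.04 (male) and -3.30 (female). The markers of neurons, oligodendrocytes, astrocytes, microglia and noradrenergic cells that were on the array (Th and Dbh for the last) were all measured. The largest difference between the sexes among these lists' medians was -0.25, and each of these medians lay toward the male pool. The pools differed more in choroid plexus markers, higher in the female pool (median difference 2.33). Red cell markers were higher in the male pool (-0.75). The part of these tissues in the differences below was not tested. In pooled tissue RNA, fewer cells of a type and less RNA per cell cannot be told apart.

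Of the 117 probes, 82 were measured, covering 67 accessions and 61 named genes. A further 6 probes were above background on the female array only, 2 on the male array only, and 27 on neither. The measured share was 70.1%, near the 73.4% of all 45595 probes. It was 82.0% of 20504 probes for curated coding transcripts (NM_) and 50.4% of 7246 probes for predicted noncoding transcripts (XR_). Above background on neither array were 23.1% of the members and 21.5% of all probes. The order of the levels depended on which probes were counted. Over all probes, those below background included, the median level was -3.90 (male) and -3.96 (female) for NR_ probes and -3.52 and -3.48 for NM_ probes. Among measured probes alone the NR_ median was -1.30 in the male pool and -1.25 in the female pool, against -2.62 and -2.60 for NM_ probes and -5.54 and -5.49 for XR_ probes. Of the 82 measured probes, 39 lay in the brightest 25% of all measured probes, 13 were brighter than 95% of them and 5 were brighter than 99%. These are descriptions of 2 arrays, and transcript length and probe design were not compared between accession types.

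The brightest members were ribosomal RNAs. Rn45s, the precursor of the large and small ribosomal RNAs, had 3 probes. The first of them was at 6.84 (male) and 6.82 (female), which is 115 and 113 times the 75th percentile. Its other two probes were at 5.40 and 3.71 in the male pool and at 5.29 and 3.67 in the female pool. Rn5-8s, a ribosomal RNA of the large subunit, was at 5.69 and 5.59, and Rn18s, the RNA of the small subunit, was at 2.27 and 2.23. These RNAs lack the poly(A) tail from which oligo(dT) primers copy, and the primer of the labelling kit is not given in the sources used here, so their signal is not read as an amount. Probes of Rn45s may also lie in sequence shared with the mature ribosomal RNAs, and these cannot be told apart.

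The other structural RNAs were all measured on both arrays. Rn7sl1, the RNA of the particle that guides secreted proteins to the endoplasmic reticulum, was at 2.02 on both arrays. Rpph1, the catalytic RNA of RNase P, which trims transfer RNA precursors, was at 0.29 in the male and 0.35 in the female pool. Terc, the template RNA of telomerase, was the dimmest of the class, at -3.64 and -3.54. The primer of the labelling kit is unknown for these RNAs too, so their signals are not read as amounts either. All 8 structural probes lay within 1.1-fold between the sexes, as did 64.5% of all measured probes. Their median female minus male difference was -0.03. All but Terc were among the brightest 25% of measured probes, where the SD of all differences was 0.11. Rn45s supplied 3 of the 8. Of the 8 probes, 2 (25%, against 56.1% of all measured probes) were higher on the female array, and 2 to 4 were under other settings of the processing.

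Meg3 was the brightest lncRNA with a gene name. It is the maternally expressed imprinted RNA of the Dlk1-Dio3 cluster and is abundant in neurons. Its 10-spot probe was at 4.28 ± 0.04 (SD over 10 spots) in the male pool and 4.32 ± 0.04 in the female pool, brighter than 99.4% of all measured probes. The spotwise difference was 0.04 ± 0.02 (SD, 10 spots), with 9 of 10 spots higher on the female array. Its second probe was lower, at 2.26 and 2.37, a difference of 0.11. Dlk1, the paternally expressed coding gene of the same cluster, lay at -4.94 (male) and -5.49 (female), a difference of -0.55.

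Gas5, host gene of several small nucleolar RNAs, followed among the named lncRNAs. Its probe was at 2.64 ± 0.04 (SD over 10 spots) in the male pool and 2.70 ± 0.05 in the female pool. The difference was 0.06 ± 0.03, and all 10 spots were higher on the female array. Snhg4, another host of small nucleolar RNAs, was at 1.09 and 1.02, a difference of -0.07. Both of these hosts, which were recognised by symbol, lay within 1.1-fold, as did 64.5% of all measured probes. They differed in opposite directions.

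The promoter windows of Meg3 and Gas5 are shown because these were the brightest named lncRNAs and because both windows held the full palindrome of the cAMP response element, TGACGTCA. Each window runs from 250 bases before to 50 bases after the start site, 5′ to 3′ on the gene's strand, with that element in capitals. The sequences and positions are RefSeq's for GRCr8, at chr6:134273806-134274105 (plus strand) for Meg3 and chr13:75836713-75837012 (plus strand) for Gas5. The array design named an older assembly, so no probe was placed on these coordinates.
Meg3: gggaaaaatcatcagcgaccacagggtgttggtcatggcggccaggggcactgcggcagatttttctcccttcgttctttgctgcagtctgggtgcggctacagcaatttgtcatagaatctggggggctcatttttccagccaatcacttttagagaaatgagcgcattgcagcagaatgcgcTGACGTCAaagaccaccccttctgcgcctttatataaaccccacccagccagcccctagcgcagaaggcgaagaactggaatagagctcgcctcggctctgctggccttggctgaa
Gas5: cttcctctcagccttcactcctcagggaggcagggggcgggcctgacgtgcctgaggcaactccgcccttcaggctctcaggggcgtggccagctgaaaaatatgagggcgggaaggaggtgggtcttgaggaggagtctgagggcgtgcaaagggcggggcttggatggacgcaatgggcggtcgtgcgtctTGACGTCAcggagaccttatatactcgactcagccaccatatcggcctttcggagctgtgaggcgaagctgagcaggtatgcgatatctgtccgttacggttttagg
The element ended 58 bases before the start site in Meg3 and 49 bases before it in Gas5. Sequence windows were matched for 56 of the 88 genes, as 60 windows because Pincl and LOC100910973 had several. The letters TGACGTCA, which read the same on both strands, were in 3 of the 60 windows (5.00%), those of Meg3, Gas5 and Lnc134, and in 1.83% of all 33469 windows. Lnc134 was measured at -3.90 and -3.96. On either strand, TATAAA was in 20% of member windows and 14.2% of all windows, CCAAT in 33.3% and 37.5%, and GGGCGG in 33.3% and 33.1%. TATAAA was in 10 of 39 windows of measured genes and 2 of 21 windows of the others, and GGGCGG was in 16 of 39 and 4 of 21. CCAAT went the other way, in 12 of 39 and 8 of 21, and TGACGTCA was in 3 of 39 and 0 of 21. The median GC content was 54.7% in the first set, 49.0% in the second and 51.7% over all windows. A match describes letters in a window and not a binding site.

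Other lncRNAs known from neurons and dividing cells lay near or below the 75th percentile. Oip5-as1, also called Cyrano, which promotes decay of the microRNA miR-7, was measured by both of its probes. The brighter probe was at 0.49 in the male and 0.44 in the female pool, and the dimmer one at -2.81 and -2.77. Miat, a nuclear lncRNA of neurons, was at -0.86 and -0.71, a difference of 0.15. Dancr, named for holding back cell differentiation, was at -0.89 and -0.80. Tug1, a broadly expressed lncRNA first described in the retina, was at -1.29 and -1.26 with its brighter and at -3.85 and -3.73 with its dimmer probe. Among these probes the difference of Miat was the largest in size.

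Antisense RNAs could be set beside the coding gene they are named for, although 1-colour signals of opposite strands come from different probes. Apeg3, the antisense RNA of the imprinted gene Peg3, was at -2.03 and -1.95, a difference of 0.08, while the 4 probes of Peg3 differed by 0.03 to 0.08. Abhd11-as1 was at -1.38 in the male and -1.23 in the female pool, a difference of 0.15, and Abhd11 at -1.83 and -1.93 differed by -0.10. No probe on the array was named Oip5.

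Among lncRNAs without a descriptive name, 29 of 46 probes were measured. The brightest was LOC102549726, at 1.65 ± 0.06 (SD over 10 spots) for the male and 1.57 ± 0.05 for the female pool. Its male spots ran from 1.57 to 1.76 and its female spots from 1.48 to 1.67, so the spots of both arrays overlapped. It differed by -0.08 ± 0.03, lower on the female array at all 10 spots, and its nearest coding gene in the RefSeq table is the heat shock gene Hspa1b. LOC100911177 was at 1.31 ± 0.08 and 1.22 ± 0.07 and differed by -0.09 ± 0.06, lower on the female array at 9 of 10 spots. LOC100912041 was at 1.16 ± 0.04 and 1.32 ± 0.05 over 9 spots, after 1 spot with an outlier flag was left out. All 9 spots were higher on the female array, by 0.16 ± 0.05. LOC100909675 was at -0.51 and -0.52, and its difference of -0.01 was smaller than its SD over 10 spots, 0.04.

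These 6 probes with repeated spots show how finely a bright probe was read. The SD of the spotwise difference was 0.02 to 0.06, and the median over 1326 probes with at least 8 spots was 0.04. In 5 of the probes the mean difference was larger in size than that probe's own SD over single spots, and in LOC100909675 it was not. Spot SD covers the printing and reading of an array. It leaves out the rats, the pooling and the labelling, so a difference beyond it is not shown to be one between the sexes.

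The brightest probe without a RefSeq match was A_44_P1090380 (NR_038113), at 4.94 (male) and 4.91 (female). Of the 7 unmatched probes 6 were measured. Their differences ran from -0.08 to 0.04.

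Pseudogene probes were measured for 17 of 22, and several were bright. Gapdh-ps1, a copy of the glycolytic gene Gapdh, was at 2.04 (male) and 2.01 (female) with its first probe and at 1.36 and 1.27 with its second. The 8 probes of Gapdh itself ran from 1.18 to 4.25. Selenok-ps2, a copy of a selenoprotein gene of the endoplasmic reticulum, was at 1.94 and 1.93 with 1 probe, whereas its other probe was not well above background on either array. Cox6c-ps1, a copy of a cytochrome c oxidase subunit gene, gave the same picture, at 0.85 in the male and 0.72 in the female pool with 1 probe and below background with the other. The probes of Selenok ran from -0.18 to 3.09 and those of Cox6c from 3.14 to 4.17.

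The levels of other pseudogenes are given beside those of the gene that shares their root symbol, although different probes read them. Hmgb1-ps2, a copy of a chromatin protein gene, was at -1.66 and -1.59 with 1 probe and at -7.04 and -7.02 with the other, while the 9 probes of Hmgb1 ran from -1.42 to 1.497. Hmox2-ps1 was at -5.45 and -5.19 against 0.79 and 0.70 for the haem oxygenase gene Hmox2. Rps4x-ps1 was at -5.52 and -5.42 against 1.56 and 1.58 for the ribosomal protein gene Rps4x. Rps7-ps20 was below background on both arrays, where Rps7 was at 3.55 and 3.51. Probe sequences were not used here, so signal from a pseudogene and from its parent gene cannot be told apart.

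Prrc2c, typed as a transcribed pseudogene in the RefSeq table, had 5 probes, all measured. They spanned mean levels of -2.10 to 2.73, and all 5 were higher on the female array by 0.03 to 0.12. Tnxa-ps1, a tenascin pseudogene of the major histocompatibility complex, was at -3.16 and -3.02. Lin28c was at -2.79 in the male and -3.04 in the female pool, a difference of -0.25. Not detected on either array were Defb16-ps, a beta-defensin pseudogene, and Dzip1-ps1.

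Probes of 1 RNA often lay far apart in level. Of the 11 accessions with at least 2 measured probes, Hmgb1-ps2 and Prrc2c spanned more than 4 log2 units between measured probes, at 5.40 and 4.84. Where a probe was below background only a lower bound on the span could be given, with that probe set at the lowest level above background or its own level where higher. It was at least 10.07 units for Selenok-ps2, at least 8.92 for Cox6c-ps1 and at least 2.97 for Ceacam6. Among the 11 accessions with at least 2 measured probes the female minus male differences of their probes lay within 0.23 of each other. The span of 0.23 was that of Ceacam6, whose measured probes were at -5.17 and -7.23 on average, and LOC100911360 followed at 0.22. A rank by level thus depends on the probe chosen.

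No measured noncoding RNA probe was 2-fold or even 1.5-fold different between the sexes. Over all 33485 measured probes, 0.514% were past 2-fold (0.340% toward the female and 0.173% toward the male pool) and 2.88% past 1.5-fold (2.01% and 0.875%). Shares of this size give few probes out of 82, so the 0 of 82 does not set the noncoding RNAs apart. The differences ran from -0.36 to 0.54 with a median of 0.01, against 0.02 over all probes, and 42 were higher in the female and 40 in the male pool. The share higher in the female pool was 51.2%, against 56.1% of all measured probes. For the members it was 42.7% after median centring and 57.3% without background correction. Within 1.1-fold were 63 of the 82 probes (76.8%), against 64.5% of all measured probes and 69.4% of NM_ probes. The members held more bright probes. From the dimmest to the brightest 25% of all measured probes, the SD of the differences was 0.36, 0.23, 0.16 and 0.11. That of the members at those levels was 0.28 (15 probes), 0.18 (12 probes), 0.11 (16 probes) and 0.09 (39 probes), smaller at each level. The part of brightness in the share within 1.1-fold was not tested.

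The probes that came nearest to a 1.5-fold difference were dim. Lnc081, an uncharacterised lncRNA, was at -6.39 in the male and -5.85 in the female pool, a difference of 0.54 (1.45-fold). RT1-T24-2, a transcript named for the rat class I histocompatibility genes and typed as lncRNA, was at -6.61 and -6.09, a difference of 0.52. Igh-6l1, named for an immunoglobulin heavy chain gene, was at -4.74 and -4.36, a difference of 0.38. On the male side the largest difference was that of LOC100911360, at -6.02 and -6.38, or -0.36, and its other probe differed by -0.14. Past 1.2-fold, a threshold chosen after seeing the data, were 9 of the 82 members (11.0%) against 15.2% of all measured probes. Of the 9, 7 were higher in the female pool (10.1% of all measured probes) and 2 in the male pool (5.14%). Besides these 4 they were Tincr, LOC100909970, RT1-CE6, LOC690120 and, toward the male pool, the pseudogene Aoc2-ps1.

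The differences of the dim probes were smaller under both settings that replaced the processed signal by the spot median signal, with normexp background correction or with none. These settings change the signal and the correction together. With normexp Lnc081 differed by 0.13 and RT1-T24-2 by 0.08, and without background correction by 0.20 and 0.23. Igh-6l1 differed by 0.20 and LOC100911360 by -0.11 with normexp. RT1-CE6, another class I transcript typed as lncRNA, was at -7.44 and -7.14, a difference of 0.31 that was 0.02 with normexp. The nearest coding gene in the RefSeq table was RT1-T24-4 for RT1-T24-2, with a difference of -0.09, and RT1-CE5 for RT1-CE6, with a difference of -0.52.

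Against probes of like brightness, 2 members lay outside the middle 95% of all differences at their level, taken in 4 equal bins. Tincr, a lncRNA known from differentiating epidermis, was at -0.27 in the male and 0.05 in the female pool. Its difference of 0.32 was outside -0.18 to 0.19, the range of the brightest bin, and it stayed between 0.29 and 0.38 under 7 other settings. It was read by 1 spot on each array. Lin28c, at -0.25, lay just outside its range of -0.23 to 0.26. By construction 5% of all measured probes lie outside these ranges.

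By class, median differences were small and the counts of direction moved with the setting. The 17 measured probes of other named lncRNAs had a median difference of 0.09, with 13 (76.5%, against 56.1% of all measured probes) higher on the female array and 11 to 14 under the other settings. The 29 uncharacterised probes had a median of -0.05, with 11 (37.9%) higher on the female array and 8 to 14 under the other settings. Pseudogenes were at 0.03, with 10 of 17 (58.8%) higher on the female array. Prrc2c alone supplied 5 of these 10 probes, so the pseudogene count does not show a direction shared across genes. In every class, probes of the same gene were counted separately. None of the 91 accessions matched to RefSeq was a microRNA or small nucleolar RNA.

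Imprinted, nuclear, host, housekeeping and neural noncoding RNAs were also looked up by name over the whole array. Of 11 imprinted RNAs, Meg3 and H19 had a probe. By symbol, Gas5 and Snhg4 of 22 host genes had one, and 5 of 13 housekeeping RNAs did (Rn45s, Rn18s, Rn7sl1, Rpph1 and Terc). Of 22 brain lncRNA names 1 was matched (Miat). RNAs on the array under another name were missed by this lookup. Oip5-as1, listed among the brain lncRNAs as Cyrano, was one of them, and both of its probes were measured. Jpx apart, no measured RNA of these lists was past 1.5-fold. Of 6 nuclear and X-inactivation RNAs, Jpx had a probe, under a predicted accession and therefore not in the set. Jpx, an X-linked activator of Xist, was at -4.21 (male) and -6.82 (female), a difference of -2.61.

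Above background on 1 array only were 8 probes, none with a bound of 2-fold, which 0.239% (female) and 0.195% (male) of all probes had. Over all 45595 probes 3.88% were above background on the female array only and 1.14% on the male array only. The members' counts were 6 and 2. H19, the maternally expressed imprinted RNA that neighbours Igf2, was at -7.36 in the female pool and not well above background in the male pool, at least 1.67-fold lower, and at least 1.34-fold lower with a higher floor. The bound sets the bright signal against the lowest signal above background on the other array, or the dim probe's own signal where that is higher.

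Igf2, the growth factor gene imprinted with H19, was higher on the female array by 0.77 and 0.82 with its 2 probes. Markers of the choroid plexus moved with these values. All 12 markers measured in both pools were over 1.5-fold higher in the female pool, with a median difference of 2.33. Their summed signal on a scale where the 75th percentile is 100 was 787 in the male and 9816 in the female pool. Most of that sum came from Ttr, at levels of 2.63 (male) and 6.54 (female). Of the 13 listed markers Tmem72 was above background on 1 array only. The 5 measured red cell markers were all over 1.5-fold higher in the male pool, at summed signals of 5396 and 3467. Their median difference was -0.75, and most of their sum came from Hba-a1, at 5.68 (male) and 5.05 (female). The part of these tissues in the H19 value was not tested.

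The remaining bounds were small and mostly concerned uncharacterised transcripts. LOC100910304 was at -7.23 in the female pool, at least 1.79-fold above the male pool, and LOC100909680 at -7.28, at least 1.76-fold. LOC102548399 was at -7.59 in the male pool, at least 1.51-fold above the female pool. C7h12orf54 went both ways: 1 probe was at -7.20 in the female pool and below background in the male pool, where it was at least 1.86-fold lower. Its other probe was at -7.41 in the male pool and below background in the female pool, where it was at least 1.71-fold lower.

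Of 88 named genes, 27 had no probe measured on both arrays. Among those with no probe above background were Strit1, which encodes a muscle micropeptide and is typed as lncRNA, and Pincl, with 3 accessions. Others were Sert1, Dcm5 and 3 transcripts of chromosome 20, AA926063, CB741658 and Cb707485. Their levels lay between -10.36 and -8.73. Each named gene was also paired with its nearest coding gene in the RefSeq table. For the 61 measured genes 41 of these neighbours were on the array and 35 of them (85.4%) were measured, and for the 27 others 20 were on the array and 13 (65.0%) were measured. No measured neighbour was past 1.5-fold, and the others gave no difference. Over all probes 73.4% were measured, and 2.88% of the measured ones were past 1.5-fold. These shares count probes and not genes. A share of 2.88% gives few out of so many neighbours, so the absence does not set them apart. Neighbours of measured genes included Matr3, which overlaps Snhg4 and differed by 0.13, and Parp2, which overlaps Rpph1 and differed by -0.10.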

How the data were processed

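Agilent Feature Extraction turned scanned spots into a background-corrected processed signal, and the deposited intensities of the spots are linear. The file headers name version 11.5.1.1 of that program and the submitters' processing notes version 9.1. Per the labels, Cy3-labelled cRNA was made from 100 ng of each pool. The authors' deposited table holds the same intensities divided by 1 constant per array (22.8 and 23.4), which sets the 75th percentile at 100.

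Control spots and spots with an outlier flag on either array were left out, log2 signals were centred on each array's 75th percentile, and repeated spots were averaged. A probe was detected when most of its spots were well above background. Names came from unversioned accessions and the RefSeq table of GRCr8, whereas the array design used an older assembly. With 1 array per sex no test was run. Differences were counted past 2-fold. Members and lists were chosen with earlier results of these data known. The rule for named RNAs took the 12 brightest accessions, differences past 1.5-fold, up to 5 bounds in each direction, up to 4 list members and the 3 accessions whose probes disagreed most. All other named RNAs, those with smaller differences included, were chosen after their values were seen. Alternatives are given in the closing section. Python 3.11.15 with numpy 2.4.6 and pandas 2.3.3, and R 4.3.3 with limma 3.58.1, were used. Normexp (offset 50) used the spot median signal.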

Additional observations from a re-analysis of the deposited data

How the results depend on the processing

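No paired analysis was possible because a single array stands for each sex, without any test. The count of 0 probes past 2-fold in each direction held with normexp or uncorrected signals and with loess, quantile or median scaling. It also held with outlier spots kept and at a threshold of 1.5-fold. The authors' table, the limit to brighter probes, both summaries per accession and the threshold of 3-fold gave 0 as well. These reuse the same signals, whose differences were all below 1.5-fold, so they could not have given more and are no further check. Admitting probes detected on at least 1 array gave 3 on the female and 1 on the male side, with extremes of 1.45 and -1.495. These values set a bright probe against a signal below background and are not measured differences: the bounds of both extremes are at least 1.76-fold and 1.51-fold. Lowering the threshold to 1.2-fold, chosen after seeing the data, gave 7 and 2. The largest differences shrank to 0.378 and -0.193 with normexp and to 0.383 and -0.201 without background correction, both on the spot median signal, and the largest toward female was 0.385 among probes above the 25th percentile. The median level depended on the setting: -1.46 on the male array without background correction, 2.20 and 2.22 on the male and female array after median centring, which moves the zero, -1.76 and -1.73 with probes detected on at least 1 array, -0.798 and -0.714 above the 25th percentile, and -1.70 and -1.69 as means per accession, a summary also chosen after seeing the data. The median difference stayed between -0.019 and 0.034, and no bound reached 2-fold with normexp or with the floor at the 1st percentile. Low signal over background limits the dim probes most.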
